A study of Mus musculus with 8 samples.

Results

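Mature migratory dendritic cells were described here in 8 single-cell RNA libraries of mouse tumors, where 195 of 29496 cells met the rule used to choose them. The rule asked for a detected UMI (a unique molecular identifier, which counts 1 captured RNA molecule) of Ccr7, for detected UMIs of at least 2 of Fscn1, Ccl22, Cacnb3 and Tbc1d4, and for no UMI of the T cell genes Cd3d, Cd3e and Cd3g or the macrophage genes C1qa and C1qb. They were 106 of 12367 cells in Atg7-deleted hosts and 89 of 17129 cells in wild-type hosts.

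Tumors were grown from MB49, a mouse urothelial cancer line, injected under the skin of C57BL/6 mice. Atg7-deleted hosts were UbcreERT2/+;Atg7f/f (libraries 3, 4, 7 and 8) and wild-type hosts were UbcreERT2/+;Atg7+/+ (libraries 1, 2, 5 and 6), so all hosts carried 1 copy of a tamoxifen-inducible Cre. All hosts were given tamoxifen daily for 4 days, received MB49 cells 1 week later at 2 tumors per mouse, and gave tumors 3 weeks after that. The host gene Atg7 was targeted in every cell type and not in dendritic cells alone, while the injected line carried no host allele. Labels give no age of the animals and do not tie tumors to mice, so tumors of 1 mouse may stand among the libraries and p-values may measure technical spread in part. The series title asks whether host autophagy lets tumors escape T cells, and the comparison below asks how the dendritic cells that prime such T cells differed between host genotypes.

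Dendritic cells take up antigen in tissues and, once activated, enter a mature state in which they stop sampling, raise costimulatory and antigen-presenting molecules and leave for the draining lymph node. Ccr7 encodes the receptor that guides them along Ccl19 and Ccl21 gradients. Fscn1 encodes fascin, an actin-bundling protein of their dendrites, and Ccl22 encodes a chemokine that attracts Ccr4-bearing T cells such as regulatory T cells. Cacnb3 (a calcium channel subunit) and Tbc1d4 (a Rab GTPase-activating protein) are markers of the same state. Autophagy, which needs the Atg7 enzyme, delivers cytoplasmic material to lysosomes and can feed the class II presentation pathway of these cells.

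A level below is the mean over cells of a library of UMIs per 10000 UMIs of the cell, and values over libraries are means of such levels. The libraries held between 4371773 UMIs (deleted library 7) and 59235799 UMIs (wild-type library 6). Atg7 itself (mm10 chromosome 6, 114643097 to 114860614) was scarce. All members together held 4 Atg7 UMIs in 3 of 106 cells from deleted hosts, against 13 UMIs in 12 of 89 cells from wild-type hosts. Its log2 difference was -0.12 ± 0.06 (SE, adjusted p = 0.439, limma). All but 1 of these UMIs lay in cells set aside below, which in wild-type hosts carried keratins of the tumor line. The counts over all members are thus no check of the host genotype. Among the kept members defined below, 0 of 93 cells from deleted hosts held an Atg7 UMI, which allows up to 3.23% of cells with a UMI, against 1 of 62 cells from wild-type hosts. At this depth neither value limits the share of cells that express Atg7. Libraries were placed in barcode sets, 1 to 4 and 5 to 8. The largest number of cell barcodes that any pair shared was 46, or 0.920% of the smaller library. The largest share was 1.245%, from 12 barcodes of libraries 7 and 8. Both maxima come from libraries 5 to 8. Among libraries 1 to 4 at most 5 barcodes were shared, with 0 between libraries 1 and 4, and at most 1 was shared across sets. The set of libraries 1 to 4 thus rests on few barcodes.

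The label did not hold for every member. A total of 30 members also carried both Krt8 and Krt18, keratins of the tumor line, and 10 others drew over 1% of their UMIs from the fibroblast genes Col1a1, Col3a1 and Dcn. The keratin members were deep cells with a median of 18415 UMIs, and their median summed level of the 5 rule genes was 1.90. The collagen-rich members had a median of 17049.5 UMIs and a median summed rule level of 2.82. Of these 40 cells, 33 met the rule through a single Ccr7 UMI, 5 had a Ccl22 UMI, and 2 had a UMI of Ptprc, the pan-leukocyte CD45 gene. They were unevenly spread: 3 keratin members came from deleted hosts and 27 from wild-type hosts, and all 10 collagen-rich members came from deleted hosts (9 in library 3, 1 in library 7).

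The remaining 155 members are called kept members. They numbered 93 in deleted hosts (42, 8, 6 and 37 in libraries 3, 4, 7 and 8) and 62 in wild-type hosts (4, 11, 23 and 24 in libraries 1, 2, 5 and 6). Their median summed rule level was 97.6, their median UMI number was 3931 and their median Ccr7 number was 14 UMIs, up to 86 in 1 cell. Among them 116 had Ccl22 and 82 had Ptprc, while 16 had 1 Ccr7 UMI only. The rule asked for these genes, so their levels are in part set by the choice of cells. A collagen and decorin share of 0.441% was the highest among kept members, and 1.27% the lowest among those set aside. This division was made after the values were seen, and 6 kept members (5 deleted, 1 wild type) still had a summed rule level under 10.

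**Figure D1:**
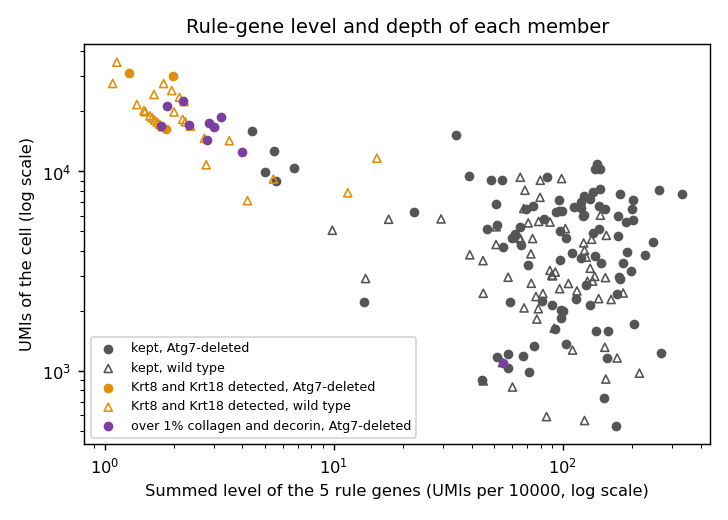
Each point is 1 of the 195 members; the x axis is the summed level of Ccr7, Fscn1, Ccl22, Cacnb3 and Tbc1d4 (UMIs per 10000, log scale) and the y axis is the UMI number of the cell (log scale), with filled circles for deleted hosts and open triangles for wild-type hosts. Cells with both keratins and most of the collagen-rich cells lie at the upper left, at high depth and low rule levels, while most kept members (grey) form a separate group to the right with a median summed level of 97.6.

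Markers of other cell types in the kept members were low with a few exceptions. The B cell genes Cd79a and Ms4a1 were at 0 in every library. Summed fibroblast markers (3 genes) ranged over 0.0953 to 9.91 in deleted libraries and 0 to 0.291 in wild-type libraries, with the highest value in library 3, where 65.0% of T cells also had at least 2 of those genes. Summed malignant markers (5 genes) ranged over 0 to 0.318 in deleted libraries and 0 to 1.03 in wild-type libraries, against 0.101 to 4.06 in deleted and 8.29 to 13.9 in wild-type libraries when all members were used. Neutrophil markers (4 genes) summed to 28.5 in wild-type library 5 and to at most 0.517 in the others. Their part in the results below was not tested. Cells with at least 4 of 5 malignant markers, which should lack Ccr7, had a Ccr7 UMI in 0% of them in deleted library 3 up to 32.9% in deleted library 7, at median depths of 8012 to 19579 UMIs.

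At the edge of the rule, 73 Ccr7-positive cells had exactly 2 of the 4 markers and are members, while 214 had exactly 1 and are not. Cells with exactly 2 had on average a Ccr7 level of 15.2, a Ccl22 level of 6.77 and a Ccl5 level of 26.2. Cells with exactly 1 stood at 5.55 for Ccr7, 0.328 for Ccl22 and 4.11 for Ccl5. A further 46 members had 3 markers and 76 had all 4.

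The genes of the rule varied widely among kept members of different libraries. Ccr7 stood at 43.7, 28.7, 54.7 and 38.4 in deleted libraries 3, 4, 7 and 8, and at 24.4, 53.4, 49.9 and 35.2 in wild-type libraries 1, 2, 5 and 6. Fscn1 ran from 3.10 to 27.8 in deleted libraries and from 8.74 to 18.1 in wild-type libraries. Ccl22 ran from 14.9 to 49.9 in deleted libraries and from 5.49 to 15.5 in wild-type libraries. Both genotypes overlapped for each of these genes, as they did for Cacnb3 and Tbc1d4. Deleted library 7, with 6 kept members, combined the highest Ccl22 with the lowest Fscn1.

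Genes outside the rule that are known in mature dendritic cells were high in the kept members. Their levels are set here beside those of 129 Ccr7-negative conventional dendritic cells and 4007 C1q-positive macrophages of the same libraries, as means over 8 libraries. Ccr7-negative dendritic cells had no UMI of Ccr7, the Cd3 genes, C1qa or C1qb, and had H2-Ab1 and Cd74 detected. They also had at least 2 of Flt3, Zbtb46, Xcr1, Clec9a, Cd209a, Wdfy4 and Kmo detected. Levels of these genes there are in part set by the choice of cells. Both classes were defined by expression, so the differences are a description without a test. The Ccr7-negative class also holds plasmacytoid-type cells, with Siglech at 3.01 there. Ccl5, a chemokine for T cells and other leukocytes, reached 74.4 ± 43.6 (SD, n = 8) in kept members, against 0.146 ± 0.136 in Ccr7-negative dendritic cells and 3.97 in macrophages. Of 10 genes of migration and cytoskeleton 9 had a higher mean in kept members than in Ccr7-negative dendritic cells, with a median ratio of 4.60, beside 52.9% of the 3948 genes tested in kept members and a median ratio of 1.04. Marcks averaged 15.8 in kept members against 3.87 in Ccr7-negative dendritic cells, and its relative Marcksl1 averaged 9.16 against 0.837. Cxcl16, a membrane-bound chemokine for Cxcr6-bearing T cells, varied little between libraries, at 10.2 ± 1.15 (SD, n = 8) in kept members and 1.99 ± 0.954 in Ccr7-negative dendritic cells. Socs2, a feedback inhibitor of cytokine signaling, stood at 4.85 against 0.0310. Each of these genes was higher in the kept members of all 8 libraries, as were 253 of the 3948 genes tested in kept members.

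Regulatory molecules were mixed, with 9 of 12 higher on average in kept members, 4 of them in all 8 libraries, and a median ratio of 4.01. Of the 3948 genes tested in kept members, 253 were higher and 225 lower in all 8 libraries. Cd274, which encodes the checkpoint ligand PD-L1, averaged 8.11 in kept members, 2.03 in Ccr7-negative dendritic cells and 3.85 in macrophages. Cd200, a ligand that restrains myeloid cells, averaged 4.10 in kept members against 0.211 in Ccr7-negative dendritic cells. Il4i1, a secreted amino acid oxidase, averaged 4.07 against 0.171 and was higher in 7 of 8 libraries. Pdcd1lg2, the gene of PD-L2, averaged 1.41 against 0.350. Havcr2 (0.330 against 0.891), Lgals9 (0.115 against 0.629) and Socs3 (0.844 against 1.84) were lower in 7 of 8 libraries each. Of 11 costimulatory genes 10 were higher on average, 1 of them in all 8 libraries. That 1 of 11 is near the share over all genes tested. Cd40 averaged 3.08 against 0.385, Cd80 1.11 against 0.336, Cd86 2.19 against 1.66 and Cd83 6.27 against 3.73. Cd80 and Cd86 were higher in the kept members of 6 of 8 libraries each, and Cd40 in all 8. Tnfsf4 and Cd70 averaged 0.442 and 0.354 in kept members and were at 0 in Ccr7-negative dendritic cells.

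NF-kB signaling is known to drive this maturation, and 14 of 15 NF-kB subunits and targets were higher on average in kept members, 7 of them in all 8 libraries, with a median ratio of 2.29. Those 7 included Rel (10.1 against 3.12), Nfkb1 (5.66 against 2.47) and Nfkbib (2.86 against 0.788), with the genes given next. The exception in the list was Bcl3, at 0.250 against 0.729 and lower in all 8. Over all 3948 genes tested in kept members, 253 were higher and 225 lower in all 8 libraries. Relb averaged 3.20 in kept members against 0.490 in Ccr7-negative dendritic cells, its partner Nfkb2 2.27 against 0.419, the ubiquitin ligase gene Birc2 2.72 against 0.271 and the adaptor gene Traf1 6.95 against 1.78. The transcription factor gene Batf3, used by the cDC1 lineage, averaged 2.14 against 0.806. The cDC1 surface markers Xcr1 and Clec9a, by comparison, were at 0.0982 and 0.304 in kept members against 1.09 and 1.17. The cDC2 marker Cd209a was at 0.0517 against 2.21. Xcr1, Clec9a and Cd209a were among the genes that chose the Ccr7-negative class, so their higher level there was in part set in advance. The lineage of the members was not assigned from these genes.

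Of 13 class I presentation genes 12 were higher on average in kept members than in Ccr7-negative dendritic cells, 8 of them in all 8 libraries, while of 12 class II presentation genes 9 were lower on average, 1 of them in all 8 libraries. The median ratios were 1.87 for class I and 0.610 for class II. Over all 3948 genes tested in kept members, 253 were higher and 225 lower in all 8 libraries. The 1 of 12 class II genes is near that latter share. The Ccr7-negative class had to have H2-Ab1 and Cd74 detected and the members did not. Its class II levels are thus in part set by that choice. B2m and H2-K1, which encode class I chains, averaged 57.5 and 34.5 in kept members against 23.5 and 16.4 in Ccr7-negative dendritic cells, with kept members higher in all 8 libraries. The exception was Calr, a chaperone gene of class I loading, at 1.72 against 4.92 and lower in all 8. H2-Ab1, a class II chain gene, averaged 44.1 against 85.2 and was lower in 7 of 8 libraries. Its partner gene H2-Aa differed little, at 68.2 against 78.6, and was lower in 5 of 8. H2-DMb1, part of the chaperone that loads class II peptides, averaged 0.817 against 5.54 and was lower in all 8. The lysosomal enzyme genes Naaa (0.626 against 5.92) and Lyz2 (1.17 against 7.92) were lower in all 8 libraries as well.

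**Figure D2:**
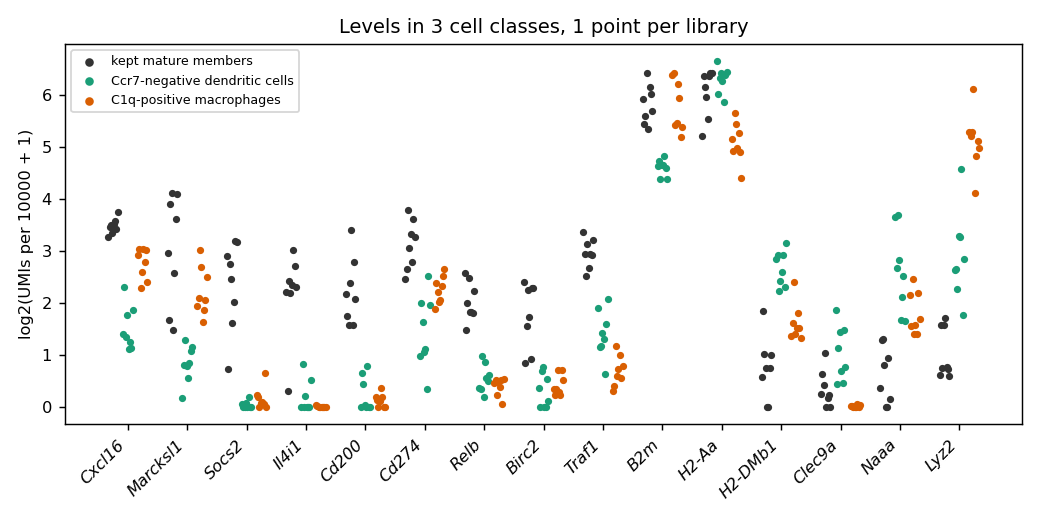
Points are libraries (8 per class), and the y axis is log2(UMIs per 10000 + 1) for 15 genes in kept mature members (black), Ccr7-negative dendritic cells (green) and C1q-positive macrophages (orange). Cxcl16, Relb, Traf1 and B2m sit higher in kept members than in Ccr7-negative dendritic cells, while H2-DMb1, Naaa and Lyz2 sit lower. Clec9a, also plotted, was used to choose the Ccr7-negative class.

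Single kept members varied in class II RNA and in Ccl5 and Fscn1 RNA. The summed level of H2-Aa, H2-Ab1, H2-Eb1 and Cd74 had medians of 50.1, 377, 237 and 112 per cell in deleted libraries 3, 4, 7 and 8, and of 176, 220, 251 and 226 in wild-type libraries 1, 2, 5 and 6. A sum under 50 was seen in 21 of 42, 2 of 8, 1 of 6 and 9 of 37 kept members of the deleted libraries. The wild-type libraries had 0 of 4, 2 of 11, 5 of 23 and 2 of 24 such cells. Library 3 thus held the largest number of class II-low members. Across the 155 cells, the class II sum ran against Fscn1 (Spearman rho = -0.533) and against Ccl5 (rho = -0.471). It had almost no relation to Ccr7 (rho = -0.0664). Within libraries 3, 8, 5 and 6, rho of Ccl5 with the class II sum was -0.315, -0.642, -0.648 and -0.326, and rho of Fscn1 with that sum was -0.215, -0.497, -0.741 and -0.532. These are descriptions over cells that share libraries and a fixed UMI total, and Fscn1 was used by the rule.

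**Figure D3:**
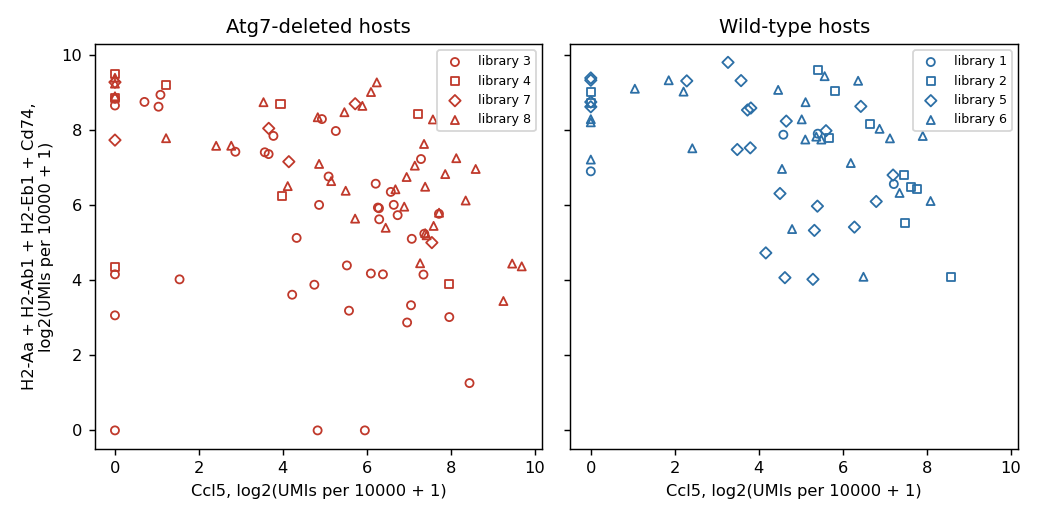
Each point is 1 kept member, with Ccl5 on the x axis and the class II sum on the y axis, both as log2(UMIs per 10000 + 1); deleted hosts are on the left and wild-type hosts on the right, with a symbol per library. Cells with the most Ccl5 tend to lie lower on the class II axis (Spearman rho = -0.471 over 155 cells), and several cells of deleted library 3 lie near 0 for class II.

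Mature members were a small share of every tumor library, and no difference in that share between host genotypes passed. They made up 1.29%, 0.326%, 0.934% and 0.760% of all cells in deleted libraries 3, 4, 7 and 8, and 0.305%, 0.476%, 0.527% and 0.624% in wild-type libraries 1, 2, 5 and 6. Deleted libraries 3, 7 and 8 lay above all wild-type libraries and deleted library 4 lay among them. Means were 0.828% ± 0.401 in deleted hosts and 0.483% ± 0.134 in wild-type hosts (SD, n = 4 each, two-sided exact permutation p = 0.171, adjusted p = 0.343 over 3 shares, smallest possible p = 0.0286). The difference was 0.419 percentage points within libraries 1 to 4 and 0.271 within libraries 5 to 8 (exact permutation within sets p = 0.167). Counting error was wide, with an exact 95% interval (Clopper-Pearson) of 0.963% to 1.70% in deleted library 3 and 0.141% to 0.641% in deleted library 4. Intervals cover counting error only. Cells with at least 4 of 5 malignant markers, part of the denominator, were 159 of 12367 in deleted and 7624 of 17129 in wild-type hosts. Their part in the shares of all cells was not tested.

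Kept members alone gave 0.688% ± 0.305 in deleted hosts and 0.332% ± 0.110 in wild-type hosts (SD over 4 libraries each; by exact permutation p = 0.114, or 0.343 adjusted). Without members holding 2 markers of another cell type the means were 0.452% in deleted hosts and 0.320% in wild-type hosts (exact permutation p = 0.343), and the difference within libraries 1 to 4 was 0.0126 percentage points. Without deleted library 4, all members averaged 0.995% in deleted hosts against 0.483% in wild-type hosts, with no overlap (exact permutation p = 0.0286, adjusted p = 0.0857). When each cell was thinned to 1000 UMIs the means were 0.754% in deleted hosts and 0.203% in wild-type hosts (exact permutation p = 0.0857, adjusted p = 0.257), after 2197 shallower cells from deleted hosts and 1992 from wild-type hosts had been left out. Among Ptprc-positive cells the members that had Ptprc made up 0.916% ± 0.406 in deleted hosts and 0.715% ± 0.189 in wild-type hosts (SD, n = 4 each, exact permutation p = 0.486). The tissue dissociation and the gradient used on all tumors can also set these shares.

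Within the dendritic compartment (members plus Ccr7-negative dendritic cells), mature members made up 65.4%, 53.3%, 30.0% and 57.6% in deleted libraries 3, 4, 7 and 8, and 53.8%, 62.5%, 68.1% and 68.6% in wild-type libraries 1, 2, 5 and 6. Means were 51.6% ± 15.2 in deleted hosts and 63.3% ± 6.86 in wild-type hosts (SD over 4 libraries each; by exact permutation p = 0.229, or 0.343 adjusted). The difference was 1.19 percentage points within libraries 1 to 4 and -24.6 within libraries 5 to 8, so its direction was not shared by the sets. With the keratin and collagen-rich members set aside, the means were 48.3% in deleted hosts and 53.9% in wild-type hosts (exact permutation p = 0.629), and the differences 9.60 percentage points within libraries 1 to 4 and -20.7 within libraries 5 to 8. With cells that had at least 1 of the 4 markers also counted, the genotypes did not overlap, at 66.3% in deleted hosts and 83.4% in wild-type hosts (exact permutation p = 0.0286, adjusted p = 0.0857). The added cells also carried the tumor-line keratin Krt18, at 0 to 3.48 in deleted and 7.68 to 11.95 in wild-type libraries, and its part in that difference was not tested.

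**Figure D4:**
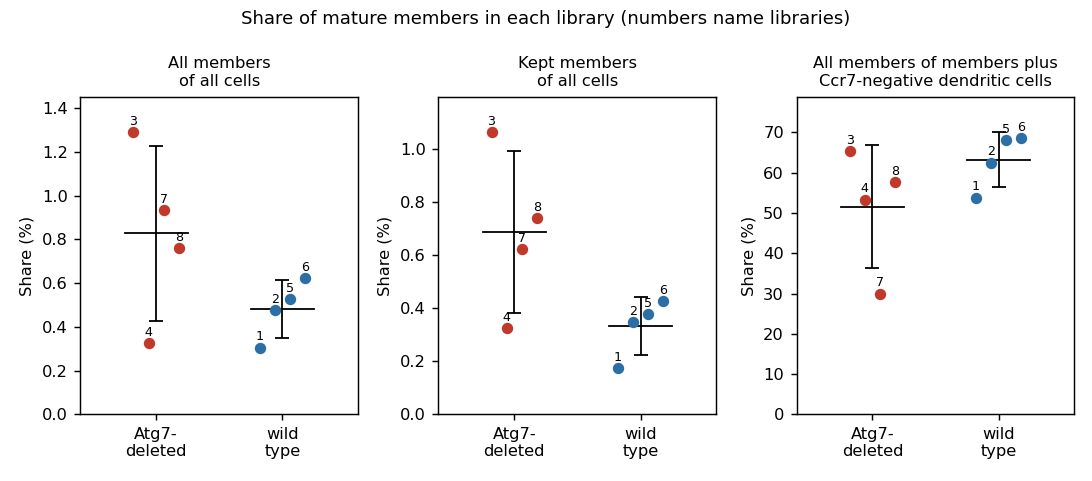
Points are libraries, with their numbers, and the y axes are shares in percent: all members of all cells (left), kept members of all cells (middle) and all members of the dendritic compartment (right). Lines are means and bars are SD (n = 4 each); in the left panel the deleted libraries average 0.828% and the wild-type libraries 0.483%, and the groups overlap in each panel.

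Gene levels in the members were then compared between host genotypes by limma on the mean log value per library, in deleted libraries 3 and 8 and wild-type libraries 2, 5 and 6, which had at least 10 members. A log2 difference below is deleted minus wild type on that scale and understates the fold of low genes. A gene was tested if at least 10% of members had a UMI in as many libraries as the smaller group held. The 2 deleted libraries alone could thus admit a gene that was high there, which favors calls in that direction. With no filter on low genes, 0 of 13615 genes passed. Of 6823 genes tested 14 passed at an adjusted p under 0.05, or 0.205%, with 12 higher and 2 lower in deleted hosts, and 789 had an unadjusted p under 0.05. The 2 lower genes were the tumor-line keratins Krt8 (-1.13 ± 0.20 SE, adjusted p = 0.00702) and Krt18 (-0.99 ± 0.19 SE, adjusted p = 0.0139). Krt8 averaged 0.0495 and 0.219 in deleted libraries 3 and 8, against 6.26, 4.13 and 3.88 in wild-type libraries 2, 5 and 6. Both keratins were used to set members aside above, and kept members had Krt8 levels of 0 to 0.318 in deleted and 0 to 0.211 in wild-type libraries. With the 40 cells set aside, 0 of 4472 genes passed in the same 5 libraries (percent called 0), with 359 at an unadjusted p under 0.05 and a lowest adjusted p of 0.0533. All 12 higher genes were tested there, and the 12 kept their sign with an unadjusted p under 0.05. They had been picked in the same libraries and mostly the same cells, so this is no independent support. In kept members of all 8 libraries 11 of them were tested and kept their sign, and 1, Fos, passed. Nr4a1 (0.26, adjusted p = 0.736), Gnb4 (0.58, 0.535), Prnp (0.45, 0.547) and Xist (0.70, 0.570) overlapped between genotypes in that limma fit. The number of genes called over all members also turned on single libraries: it was 0 without wild-type library 6, 5 without deleted library 3, 6 without wild-type library 5 and 246 without deleted library 8.

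Klf2, Fos, Btg2 and Nr4a1 are known regulators that respond quickly to stimuli. The zinc finger transcription factor gene Klf2 had levels of 4.06 and 4.54 in kept members of deleted libraries 3 and 8, against 0.301, 0.240 and 0 in wild-type libraries 2, 5 and 6. Over all members its log2 difference was 1.18 ± 0.18 (SE, adjusted p = 0.00280, limma). Deleted libraries 4 and 7, with few members, stood at 0 and 0.690 and so overlapped the wild-type libraries. Fos, a subunit of the AP-1 transcription factor, rose by 1.35 ± 0.28 (SE, adjusted p = 0.0318, limma), the antiproliferative gene Btg2 by 1.14 ± 0.19 (adjusted p = 0.00590) and the orphan nuclear receptor gene Nr4a1 by 0.78 ± 0.15 (adjusted p = 0.0139). In the other cells of the libraries, Klf2 averaged 3.02 to 7.04 in deleted and 0.965 to 1.58 in wild-type libraries and Fos 6.64 to 14.4 in deleted and 1.47 to 3.80 in wild-type libraries, without overlap. Fos, Btg2 and Nr4a1 belong to a list of 17 genes known to respond to tissue dissociation, of which these 3 passed, 15 were positive and the median difference was 0.78, beside -0.02 over all genes tested. Library 3 stood highest for Fos in T cells as well, at 6.29 against at most 1.84 in any other library. In kept members of all 8 libraries 1 of the 17 genes passed, 15 were positive and the median was 0.57. The part of dissociation in these results was not tested. Median UMIs per member were 5368 ± 1534 in the deleted libraries compared (SD, n = 2) and 4139 ± 1454 in the wild-type libraries (SD, n = 3, two-sided exact permutation p = 0.40, where the smallest p the design allows is 0.10).

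Plxnc1 and Kctd12 did not overlap between the genotypes in kept members of the 8 libraries. Such a lack of overlap, judged on the mean log values that limma tested, was seen for 5.27% of the 3948 genes tested. Neither gene passed there, with Plxnc1 at 1.07 ± 0.29 (SE, adjusted p = 0.128, limma) and Kctd12 at 0.90 ± 0.25 (adjusted p = 0.127). Plxnc1 encodes plexin C1, a receptor for the semaphorin Sema7a that acts in adhesion and migration. It stood at 5.12, 2.53, 2.30 and 5.14 in kept members of deleted libraries 3, 4, 7 and 8, and at 0.383, 2.08, 0.833 and 0.815 in wild-type libraries 1, 2, 5 and 6. Every deleted library lay above every wild-type library, the nearest pair being deleted library 7 and wild-type library 2, and deleted libraries 3 and 8 stood highest. The log2 difference over all members was 1.33 ± 0.24 (SE, adjusted p = 0.00741, limma). Kctd12, an auxiliary subunit of the GABA-B receptor, stood at 2.96, 2.58, 2.68 and 2.45 in kept members of deleted libraries and at 0.648, 0.245, 0.682 and 0.221 in wild-type libraries. Its groups were far apart and the deleted libraries nearly equal, and the log2 difference over all members was 0.97 ± 0.17 (SE, adjusted p = 0.00702, limma). Kctd12 averaged 1.56 in kept members, 4.44 in Ccr7-negative dendritic cells and 3.63 in macrophages.

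Zfp36l1, Cbfa2t3, Gnb4, Prnp and Xist stood highest, among the deleted libraries, in 3 and 8. Zfp36l1, which binds mRNA and speeds its decay, had the largest difference at 1.81 ± 0.39 (SE, adjusted p = 0.0438, limma), with kept-member levels of 9.78, 3.45, 2.35 and 11.1 in deleted libraries and 2.66, 3.34, 2.16 and 3.03 in wild-type libraries. Cbfa2t3, a transcriptional corepressor, rose by 1.24 ± 0.27 (adjusted p = 0.0405), the G protein subunit gene Gnb4 by 0.98 ± 0.21 (adjusted p = 0.0346) and the prion protein gene Prnp by 0.84 ± 0.17 (adjusted p = 0.0267). Slc27a3, an acyl-CoA synthetase family gene that fell outside the naming rule, rose by 0.59 ± 0.13 (adjusted p = 0.0458). The noncoding RNA Xist, which acts on the inactive X chromosome, rose by 1.63 ± 0.28 (SE, adjusted p = 0.00702, limma). Its kept-member levels were 7.29, 2.75, 0.628 and 5.28 in deleted libraries and 3.04, 2.23, 1.66 and 0.790 in wild-type libraries, and the groups overlapped. In T cells Xist was present in all 8 libraries, at 6.03 to 9.85 in deleted and 4.59 to 7.20 in wild-type libraries.

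Kept members of all 8 libraries gave a second view, added after the data were seen, in which 4 of 3948 genes passed, or 0.101%, with 329 at an unadjusted p under 0.05. The lowest number of kept members was 4, in wild-type library 1. Fabp5, a fatty acid-binding protein, fell by 2.35 ± 0.50 (SE, adjusted p = 0.0274, limma). It stood at 10.7, 4.53, 8.97 and 9.81 in deleted libraries 3, 4, 7 and 8, and at 58.2, 28.4, 52.7 and 71.3 in wild-type libraries 1, 2, 5 and 6. All deleted libraries lay below all wild-type libraries, with means of 8.50 ± 2.74 in deleted and 52.7 ± 17.96 in wild-type hosts (SD, n = 4 each). Fabp5 in Ccr7-negative dendritic cells was 0.0825 to 1.38 in deleted and 0.194 to 1.17 in wild-type libraries, and cells with at least 4 of 5 malignant markers had at most 0.496. Macrophages held 8.39 to 20.03 in deleted and 15.1 to 34.3 in wild-type libraries.

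Isg15, a ubiquitin-like protein induced by type I interferon, fell by 1.80 ± 0.40 (SE, adjusted p = 0.0325, limma). Its levels were 0.748, 2.66, 1.37 and 3.93 in deleted libraries and 2.75, 5.26, 14.8 and 25.3 in wild-type libraries. The groups overlapped in level at deleted library 8 and wild-type library 1, and wild-type libraries 5 and 6 were highest. Mean log values, as tested by limma, did not overlap. Isg15 was detected in 9 of 42, 4 of 8, 2 of 6 and 16 of 37 kept members of deleted libraries, and in 3 of 4, 7 of 11, 20 of 23 and 23 of 24 of wild-type libraries. The other cells overlapped, at 2.27 to 8.999 in deleted and 2.95 to 8.32 in wild-type libraries. Of 15 type I interferon response genes 10 were tested, 1 was lower and 9 were negative, with a median of -0.13 beside 0.07 over all genes. Over all members in 5 libraries 13 of the list were tested, 0 passed and 12 were negative, with a median of -0.22 beside -0.02. Bst2, which encodes the surface protein tetherin, was among the 9 that did not pass (-0.57 ± 0.37 SE, adjusted p = 0.677), with levels of 2.15 to 2.63 in deleted and 2.80 to 7.09 in wild-type libraries. Its mean log values overlapped.

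The promoter of Isg15 is shown because it is the interferon gene that passed. A match to a motif is a description of letters, not of binding. The interferon-stimulated response element was searched as GAAA, any 2 bases and GAAA again, on both strands, in the 250 bases before the gene start (RefSeq, GRCm38.p6), where it matched 3 times at overlapping positions, in capitals. Of 32851 such windows, 2.98% held a match, and among the list's 12 genes with a window 6 did (Isg15, Ifit1, Ifit3, Rsad2, Bst2 and Stat2). The window is chr4:156200819-156201068, written along the gene's minus strand.
Isg15: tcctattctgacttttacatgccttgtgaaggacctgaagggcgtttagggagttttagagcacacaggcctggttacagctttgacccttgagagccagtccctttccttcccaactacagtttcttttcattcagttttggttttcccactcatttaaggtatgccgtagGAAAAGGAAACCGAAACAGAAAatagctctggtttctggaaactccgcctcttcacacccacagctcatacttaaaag

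Il12b and Fos passed in the other direction. Il12b encodes the p40 chain of interleukin 12, the cytokine by which dendritic cells drive T helper 1 and cytotoxic responses. It rose by 1.20 ± 0.28 (SE, adjusted p = 0.0350, limma), with levels of 1.89, 2.19, 9.56 and 12.7 in deleted libraries and 0, 0.490, 5.81 and 0.593 in wild-type libraries. Wild-type library 5 lay above deleted libraries 3 and 4, so the levels overlapped, while the mean log values that limma tested did not. It was detected in 13 of 42, 2 of 8, 3 of 6 and 24 of 37 kept members of deleted libraries, and in 0 of 4, 1 of 11, 3 of 23 and 2 of 24 of wild-type libraries. Outside the members Il12b was nearly absent, at no more than 0.0410 in the other cells of any library. Fos stood at 7.17, 2.70, 1.66 and 3.22 in deleted libraries and 0, 0.581, 1.18 and 0.237 in wild-type libraries without overlap, and its difference was 1.09 ± 0.25 (SE, adjusted p = 0.0350, limma). With each library left out in turn, the differences of Fabp5 (-2.62 to -2.14), Isg15 (-2.19 to -1.31), Il12b (0.89 to 1.46) and Fos (0.86 to 1.23) kept their signs, but Isg15 passed in 4 of 8 cases, Il12b in 3 and Fabp5 and Fos in 2 each. The count of genes passing was 0 without wild-type library 6 or deleted library 7, 1 without wild-type library 5 or deleted library 3 and 10 without deleted library 8. Over all members in the 5 libraries, Il12b (1.20 ± 0.30 SE, adjusted p = 0.0868, limma), Isg15 (-1.62 ± 0.44, adjusted p = 0.125) and Fabp5 (-0.97 ± 0.54, adjusted p = 0.494) did not pass. With a term for the barcode sets in that fit, Il12b (1.34 ± 0.24 SE, adjusted p = 0.00495, limma) and Isg15 (-1.47 ± 0.34, adjusted p = 0.0319) passed and Fabp5 did not (adjusted p = 0.326). Median UMIs per kept member were 5537.5 ± 2141 in deleted libraries and 3529 ± 998 in wild-type libraries (SD, n = 4 each, exact permutation p = 0.143), and the part of depth in these results was not tested.

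**Figure D5:**
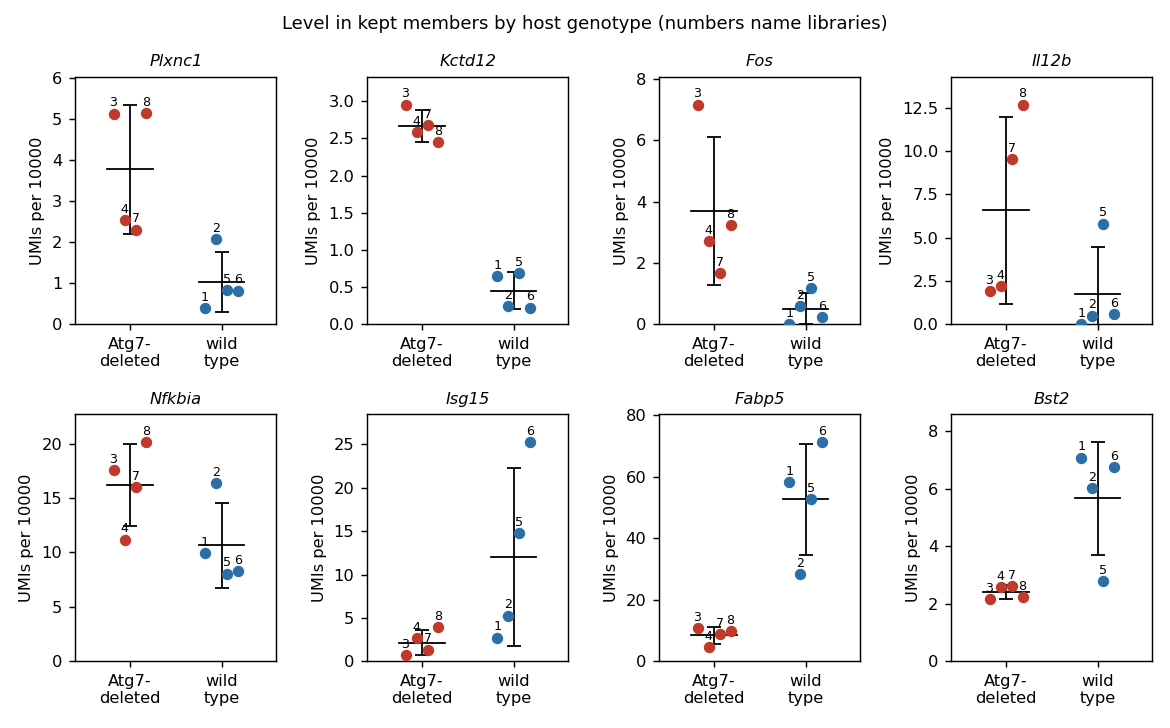
Levels (UMIs per 10000) of 8 genes in kept members, with deleted libraries on the left and wild-type libraries on the right of each panel; points are libraries with their numbers, lines are means and bars are SD (n = 4 each), cut off at 0. Plxnc1, Kctd12 and Fos lie higher and Fabp5 and Bst2 lower in all deleted libraries, while Il12b, Nfkbia and Isg15 overlap.

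No NF-kB gene passed between genotypes. Of 15 NF-kB subunits and targets tested in all 8 libraries 0 passed and 14 were positive, with a median log2 difference of 0.40, beside 63.75% positive and a median of 0.07 over all genes; in the 5 libraries with at least 10 members, the counts were 0 passing and 14 positive of 15, with a median of 0.47, beside 45.35% positive and a median of -0.02. Tnfaip3, a feedback inhibitor of NF-kB, stood at 3.57, 4.06, 5.59 and 4.81 in deleted libraries and at 2.92, 0.745, 2.31 and 1.86 in wild-type libraries (0.78 ± 0.33 SE, adjusted p = 0.510, limma). Nfkbiz, an IkB-family regulator, stood at 2.32, 5.71, 5.10 and 4.201 in deleted libraries and at 0.383, 1.76, 1.61 and 0.861 in wild-type libraries (0.79 ± 0.29 SE, adjusted p = 0.457, limma). Neither gene's groups overlapped, as was the case for 208 of the 3948 genes tested, or 5.27%.

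Few genes of the program that marks the mature state passed between genotypes. Of 10 genes of migration and cytoskeleton, 0 passed in either comparison, and 9 were positive over all members in 5 libraries with a median of 0.57, and 8 over kept members in 8 libraries with a median of 0.33, beside the same 45.35% and 63.75% of all genes positive. Chemokines (7 tested in kept members, median -0.04), costimulatory molecules (8, median 0.01), regulatory molecules (8, median -0.05) and survival genes (7, median 0.22) had 0 genes passing. Over all members in 5 libraries 9 of 9 costimulatory genes were positive with a median of 0.16 and 0 passing, against 4 of 8 positive in kept members. Ccl5 differed by -0.32 ± 0.52 (SE, adjusted p = 0.893, limma) and Cd274 by -0.24 ± 0.47 (adjusted p = 0.909). Among 7 cytokine genes tested, Il12b passed and Il1b did not (-0.57 ± 0.47 SE, adjusted p = 0.754).

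Presentation, autophagy and metabolism lists also gave 0 passing genes in kept members. Of 11 class II presentation genes 6 were positive with a median of 0.02, and of 13 class I genes 6 were positive with a median of -0.15. Over all members in 5 libraries 1 of 10 class II genes was positive with a median of -0.25, and 4 of 13 class I genes with a median of -0.17. H2-Aa differed by -0.64 ± 0.47 (SE, adjusted p = 0.724, limma) and Cd74 by -0.53 ± 0.45 (adjusted p = 0.760). Of 11 autophagy genes tested 5 were positive with a median of -0.05. Gabarap, a ubiquitin-like protein that Atg7 activates, stood at 6.39, 4.76, 5.09 and 7.17 in deleted libraries and 9.79, 9.81, 9.46 and 16.5 in wild-type libraries without overlap, but did not pass (-0.74 ± 0.48 SE, adjusted p = 0.677, limma). Sqstm1, the autophagy receptor p62, overlapped at 3.25 to 13.5 in deleted and 4.40 to 20.8 in wild-type libraries. Of 13 glycolysis genes 9 were negative with a median of -0.33, and over all members in 5 libraries 13 of 14 were negative with a median of -0.94, the set that included the keratin cells. Interferon gamma response genes had 0 of 13 passing with a median of 0.04. Genes of the cDC1 lineage (3 tested), the cDC2 and monocyte-derived lineage (3), pattern recognition receptors (3) and cell cycle (4) gave 0 calls, and no Langerhans cell gene was frequent enough to test.

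A direct test asked whether the genotype difference in mature members differed from that in Ccr7-negative dendritic cells of the same libraries, in deleted libraries 3 and 8 and wild-type libraries 5 and 6. Of 5317 genes 6 passed, or 0.113%, all with the more positive difference in mature members, and 391 had an unadjusted p under 0.05. Plxnc1 led with a difference of differences of 1.43 ± 0.26 (SE, adjusted p = 0.000145, limma). It stood at 0.251 and 0.0893 in Ccr7-negative dendritic cells of deleted libraries and at 0.245 and 0.186 in those of wild-type libraries. At levels so near 0 little genotype difference could appear in that class. The value for Plxnc1 thus mostly repeats the difference in members given above and cannot show that the classes respond differently. Sema7a, which encodes the semaphorin ligand of plexin C1, passed as well (1.23 ± 0.29 SE, adjusted p = 0.0317). The other 4 were Nfkbia (2.04), the interferon-inducible gene Epsti1 (1.47), the cAMP-responsive regulator gene Crem (1.15) and the interleukin 10 receptor gene Il10ra (1.15), each at an adjusted p of 0.0317. The count was 4 without deleted library 3, 1 without wild-type library 5, 3 without wild-type library 6 and 0 without deleted library 8.

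Nfkbia encodes IkB-alpha, which holds NF-kB in the cytoplasm and is itself an NF-kB target. It stood at 17.6 and 20.2 in kept members of deleted libraries 3 and 8, against 8.06 and 8.27 in wild-type libraries 5 and 6. In Ccr7-negative dendritic cells the order was the opposite, with 4.59 and 10.4 in deleted libraries and 14.1 and 13.0 in wild-type libraries. Over all 8 libraries the kept members overlapped, since wild-type library 2 reached 16.4 and deleted library 4 stood at 11.2. Repeated on kept members, 7 of 4047 genes passed: Nfkbia (2.46 ± 0.47 SE, adjusted p = 0.000542, limma) and Plxnc1 (1.47 ± 0.29, adjusted p = 0.000667) with positive values, and Fabp5 (-2.05), Bcl2a1a (-1.83), Isg15 (-1.72), Ifi27l2a (-1.70) and Tmsb4x (-1.01) with negative ones. Fabp5 was also low in Ccr7-negative dendritic cells, at 1.38 and 0.0825 in these deleted libraries and 0.367 and 1.17 in the wild-type ones. Its value, like that of Plxnc1, thus mostly repeats the difference in members. The survival gene Bcl2a1a has near-identical copies in the mouse genome, so its counts are uncertain. Sema7a, Crem, Il10ra and Epsti1 had adjusted p values of 0.0704, 0.104, 0.104 and 0.0622 there. Crem in Ccr7-negative dendritic cells was 0.580 and 0.905 in the deleted libraries, against 1.79 and 2.31 in the wild-type libraries. Il10ra in those cells was 0.367 and 1.19, against 2.36 and 2.98. In kept members both genes overlapped, with Crem at 1.39 and 2.08 against 1.59 and 0.942. Il10ra in kept members was 0.845 and 1.70, against 0.929 and 1.09.

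The promoter window of Nfkbia is shown because its genotype difference was opposite in sign between mature members and Ccr7-negative dendritic cells. The NF-kB consensus, searched by name on both strands, matched 1 time, 29 bases before the gene start (capitals), in the window chr12:55492648-55492897, written along the minus strand. A match was present in 3.90% of 32851 windows and in 6 of the NF-kB list's 12 genes with a window (Nfkb2, Rel, Nfkbia, Nfkbie, Tnfaip3 and Tnip1). Ccl22, Fscn1, Cacnb3, Tbc1d4 and Il12b had none in their windows.
Nfkbia: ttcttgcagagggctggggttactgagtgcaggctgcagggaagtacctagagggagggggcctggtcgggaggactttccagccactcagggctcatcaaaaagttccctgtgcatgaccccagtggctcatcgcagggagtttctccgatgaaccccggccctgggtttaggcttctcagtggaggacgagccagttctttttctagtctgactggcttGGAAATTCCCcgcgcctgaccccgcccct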

How the data were processed

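Cells of 8 tumors were profiled with a 10x Genomics 5′ kit after dissociation, filtering and a density gradient, per the labels' protocols. The authors deposited natural log values, the natural log of 1 plus a gene's UMIs per 10000 UMIs of its cell, as read from the values. Cell Ranger 2.1, Seurat 3.0 and mm10 are listed in the submitters' processing notes. Whole UMIs were recovered for 100% of values within 0.01 UMI, and no doublet caller was run.

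Members and gene lists were chosen with earlier results of these data known. Shares were compared by two-sided exact permutation over libraries. Gene tests used limma 3.58.1 in R 4.3.3 (trend) on the mean deposited log value per library divided by ln 2, in libraries with at least 10 members, for genes with a UMI in at least 10% of members, with Benjamini-Hochberg adjustment over all genes tested. Depth can move a mean of logarithms. Named genes were the rule genes, Atg7, the 10 largest differences in each direction among those past 0.05, and 2 to 4 abundant members or any called member of each list; single genes outside this rule were chosen after their values were seen. On simulated data, log2 differences of 1 and 2 were recovered for 89% and 93% of changed genes in the 6823-gene comparison, with 5 false calls, and for 85% and 99% in the 3948-gene comparison, with 16 false calls. These data were independent normal values with the spread of the same limma fit and 200 changed genes. They held no zero counts, depth differences, shared mice or stray cells, so the recovery is not the power in the real data. Coordinates come from GENCODE for mm10.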

Additional observations from a re-analysis of the deposited data

Results flagged for a closer look

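Among 50 groups of 4 libraries examined in the kept members, 6 held a library far from the others. A chance rate of about 1 in 20 does not hold for levels mostly at 0. Krt8 and Krt18 were also used to set members aside, so the count of 6 cannot be set against chance. In wild-type hosts these were Cbfa2t3 at 2.64 in library 5, Nr4a1 at 2.27 in library 1, Il12b at 5.81 in library 5 and Krt18 at 1.03 in library 1. In deleted hosts they were Krt8 at 0.318 in library 4 and Krt18 at 0.0621 in library 3. Library 1 had 4 kept members, so 1 cell can set its level.

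The genotype difference in all members differed from that in Ccr7-negative dendritic cells, by the test of the difference itself, for Plxnc1 (1.43), Sema7a (1.23), Crem (1.15), Il10ra (1.15), Nfkbia (2.04) and Epsti1 (1.47), in log2 units.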

How the results depend on the processing

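No paired analysis was possible because the genotypes share no library numbers in the labels. The 14 genes called over all members became 8 with at least 3 of 4 markers, 7 without members holding 2 markers of another cell type, 0 after thinning to 1000 UMIs (138 at an unadjusted p under 0.05), 0 with no filter on low genes (957 at an unadjusted p under 0.05), 50 with libraries weighted by members and 72 with a term for the barcode sets. Alternatives chosen after seeing the data gave 0 without the keratin or collagen members, 244 with all 8 libraries weighted by members, 4 with all 8 libraries and kept members and 45 with these weighted. Leaving out 1 library gave 0 (without wild-type library 6) to 246 (without deleted library 8), with 5 without deleted library 3, 6 without wild-type library 5 and 11 without wild-type library 2; the lone deleted library left in 2 of these is assumed to vary like the others. Over kept members of all 8 libraries the range was 0 to 10. The 6 genes that differed from Ccr7-negative dendritic cells became 3 on the log2(mean + 1) scale, 1 with a 5% filter and 0 to 4 with 1 library left out. The difference in the share of Ptprc-positive cells turned to -0.0472 percentage points without members holding 2 markers of another cell type. The share of all cells kept its direction, at 0.190 to 0.512 percentage points with 1 library left out and 0.132 without members holding 2 markers of another cell type. The cause of these changes was not tested. The 14 genes called over all members kept their sign in each alternative in which they were tested. Rule genes did not: over kept members of all 8 libraries Ccr7 (-0.23 against 0.42 over all members), Fscn1 (-0.12 against 1.54) and Cacnb3 (-0.49 against 0.76) turned negative, and none of these passed. The small number of members per library (4 to 42 kept) limits all levels.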
